A study of Mus musculus with 12 samples.

Results

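Inflammasomes are protein platforms that macrophages build in the cytosol when a sensor detects a microbial product or damage. The genes described here are 10 of their components: the sensor genes Nlrp3, Aim2, Nlrc4, Nlrp1b and Mefv, the NLRP3 partner Nek7, the adaptor Pycard, the caspase genes Casp1 and Casp4, and the pore-forming effector Gsdmd. They were chosen by symbol, each symbol matched 1 entry, and together they are 10 of the 55335 genes in the table. All 10 were among the 12622 genes with at least 1 FPKM in at least 3 of the 12 libraries, which were the genes tested. Nlrp3 passed that filter through wild-type libraries alone, and Nlrp1b passed it through control libraries alone.

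The cells were bone marrow-derived macrophages (BMDMs), a culture model in which marrow precursors mature into macrophages, and their RNA gave 4 groups of 3 libraries. Wild-type and Nlrp3-/- cells were each sequenced as a control and after LPS+ATP. Control cells received neither agent, and per the labels LPS+ATP cells received lipopolysaccharide (LPS) for 4 hours and then ATP for 30 min. The study's methods describe 12 hours of LPS and 2 hours of ATP, and which of these times apply to the libraries cannot be told from the sources. Per the methods, donors were C57BL/6 mice aged 8 weeks, and marrow was grown with macrophage colony-stimulating factor for 7 days before adherent cells were taken. Wild-type and Nlrp3-/- mice came from different suppliers. Nothing in the labels says that the replicates were separate animals or cultures. The study's methods state that sample sizes count independent replicates, but not whether these libraries came from separate animals or cultures. The p-values thus measure the spread between these libraries, which may be technical.

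FPKM is a level per transcript length and per size of the library, so levels can be set side by side between genes if the lengths used are right. The length used for each gene is not given in the sources used here, which limits comparisons of levels between genes. Between 21122 and 22613 genes were above 0 in a library. FPKM keeps no counts, but the low values of genes with 1 annotated transcript fell at steps that corresponded to between 20100000 and 24400000 fragments per library. Between 48.4% and 52.4% of those low values lay within 0.05 of a whole number of fragments, so this depth is an estimate. Pearson r of log2(FPKM + 1) across the tested genes was 0.990 to 0.993 between libraries of 1 group and 0.815 to 0.964 between groups, where genes are not independent replicates.

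In the pathway as it is known, LPS primes macrophages through Toll-like receptor signalling, which raises the transcripts of NLRP3 and pro-IL-1β. ATP then opens the P2X7 receptor, potassium leaves the cell, and NLRP3 assembles with NEK7 and the adaptor ASC, the product of Pycard. ASC recruits pro-caspase-1, which matures IL-1β and IL-18 and cleaves gasdermin D, whose amino-terminal part forms pores in the plasma membrane. AIM2 senses cytosolic DNA, NLRC4 acts with NAIP proteins that bind bacterial flagellin and secretion needles, NLRP1B responds to protease activity, and pyrin, the product of Mefv, forms an inflammasome of its own. Mouse Casp4 encodes the non-canonical inflammatory caspase that binds intracellular LPS and also cleaves gasdermin D.

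The promoters of Nlrp3, Nlrp1b, Pycard, Casp1 and Casp4, which are 5 of the 7 members called with LPS+ATP, and that of Aim2 are printed to show the sequence upstream of genes that moved in opposite directions or little. They run from 250 bases before to 50 bases after a RefSeq start site on GRCm38.p6, 5′ to 3′ on the gene's strand. The table held 12 such windows for 9 of the 10 members, with none for Gsdmd. Each window was searched on both strands for GGGANNTTC (a kappaB form), GAAANNGAA (a form of the interferon-stimulated response element), TTCNNNGAA (a GAS form) and TGANTCA (an AP-1 form), which can overlap. Capitals mark a match.
Nlrp3, chr11:59542436-59542735, plus strand: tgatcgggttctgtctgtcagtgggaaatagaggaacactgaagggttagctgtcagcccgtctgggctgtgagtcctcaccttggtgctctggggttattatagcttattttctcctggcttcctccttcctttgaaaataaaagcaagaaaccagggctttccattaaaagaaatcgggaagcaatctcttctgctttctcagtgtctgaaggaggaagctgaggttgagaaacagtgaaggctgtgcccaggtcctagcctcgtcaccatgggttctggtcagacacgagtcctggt
Aim2, chr1:173420354-173420653, plus strand: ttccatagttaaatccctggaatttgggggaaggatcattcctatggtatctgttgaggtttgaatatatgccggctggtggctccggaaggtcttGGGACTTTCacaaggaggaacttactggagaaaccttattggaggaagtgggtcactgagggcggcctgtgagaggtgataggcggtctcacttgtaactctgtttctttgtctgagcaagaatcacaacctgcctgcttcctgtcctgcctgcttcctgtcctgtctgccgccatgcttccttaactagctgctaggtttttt
Nlrp1b, chr11:71230684-71230983, minus strand: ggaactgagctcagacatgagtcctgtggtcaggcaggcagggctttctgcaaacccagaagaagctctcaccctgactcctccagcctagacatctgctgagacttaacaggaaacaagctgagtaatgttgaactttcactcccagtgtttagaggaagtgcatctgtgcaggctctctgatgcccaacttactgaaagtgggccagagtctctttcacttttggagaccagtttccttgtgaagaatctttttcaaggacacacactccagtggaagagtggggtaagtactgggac
Pycard, chr7:127993818-127994117, minus strand: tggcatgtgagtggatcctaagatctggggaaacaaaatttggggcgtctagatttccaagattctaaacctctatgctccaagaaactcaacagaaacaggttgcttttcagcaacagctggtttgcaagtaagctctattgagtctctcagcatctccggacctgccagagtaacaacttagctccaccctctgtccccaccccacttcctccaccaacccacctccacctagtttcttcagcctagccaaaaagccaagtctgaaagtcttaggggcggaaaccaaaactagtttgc
Casp1, chr9:5298267-5298566, plus strand: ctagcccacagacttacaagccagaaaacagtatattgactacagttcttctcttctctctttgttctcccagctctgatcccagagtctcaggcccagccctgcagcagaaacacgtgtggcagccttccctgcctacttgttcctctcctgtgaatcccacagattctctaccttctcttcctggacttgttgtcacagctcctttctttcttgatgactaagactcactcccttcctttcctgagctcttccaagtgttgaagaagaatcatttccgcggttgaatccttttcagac
Casp4, chr9:5308599-5308898, plus strand: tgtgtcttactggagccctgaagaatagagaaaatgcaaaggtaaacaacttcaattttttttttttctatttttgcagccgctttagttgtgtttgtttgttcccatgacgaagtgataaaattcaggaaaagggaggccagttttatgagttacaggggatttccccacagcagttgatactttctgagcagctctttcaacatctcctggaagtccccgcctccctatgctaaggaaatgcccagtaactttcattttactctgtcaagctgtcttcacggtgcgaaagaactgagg
Among the 12 windows, a single match was found, GGGACTTTC in Aim2, which began 154 bases before the start. Of the 32851 promoters in the table, 3.94% held the kappaB form, 8.56% the interferon-stimulated response element form, 8.3% the GAS form and 7.81% the AP-1 form. The other 11 windows did not hold these letters, which says nothing about any factor, and Aim2 was the member whose level moved least with LPS+ATP. Only the given form of each motif was searched, so a window without a match, such as that of Casp4, may hold another form.

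Nlrp3 checked the genotype labels. In wild-type control libraries it was listed at 9.24, 9.71 and 10.1 FPKM, and in wild-type LPS+ATP libraries at 32.1, 33.0 and 33.6 FPKM. All 6 Nlrp3-/- libraries listed it at 0, while 8 of 8 housekeeping genes were above 0 in every library, with a lowest value of 1.07 FPKM. Every library therefore matched its label for this gene. No fold was computed against the groups listed at 0.

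The genotype groups also differed in ways other than Nlrp3. Xist, which is expressed from the inactive X chromosome of female cells, was at 32.8 to 56.3 FPKM in Nlrp3-/- libraries and at most 0.0416 FPKM in wild-type libraries. Of 4 genes on the Y chromosome (Uty, Kdm5d, Eif2s3y and Ddx3y), all were above 0 in the 6 wild-type libraries, with Ddx3y at 7.72 to 10.9 FPKM, and all were listed at 0 in the 6 Nlrp3-/- libraries. Genotype and sex cannot be told apart in these libraries. Nnt, a mitochondrial gene that differs between C57BL/6 substrains, was at 4.09 to 10.3 FPKM in wild-type and 0.67 to 1.47 FPKM in Nlrp3-/- libraries, so genotype and strain background cannot be told apart either.

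Macrophage markers were abundant in every library. Lyz2 was the most abundant of the 8 marker symbols, and Adgre1, which encodes F4/80, had a mean of 237 FPKM in wild-type control and 184 FPKM in Nlrp3-/- control. The macrophage list summed to 19974, 21159 and 21123 FPKM in wild-type control and to 19071, 19281 and 19319 FPKM in Nlrp3-/- control. With LPS+ATP it summed to 11793, 11794 and 11862 FPKM in wild-type and to 11179, 11366 and 11118 FPKM in Nlrp3-/- libraries. Lyz2 made up most of these sums, which hide the other markers. Its means were 18464 and 9471 FPKM in wild-type and 17693 and 9309 FPKM in Nlrp3-/- cells, in control and with LPS+ATP, while Cd14 and Fcgr1 rose with LPS+ATP in both genotypes. Cd68 had means of 1450 FPKM in wild-type control and 877 FPKM in Nlrp3-/- control, and Csf1r 253 and 164 FPKM. By the limma adjusted p alone, 5 of the 9 entries for these symbols were lower in Nlrp3-/- control, against 14.5% of all tested genes, and 4 were lower in Nlrp3-/- cells with LPS+ATP, against 12.6%.

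Marker sums of fibroblasts and granulocyte precursors were higher in Nlrp3-/- libraries. The 7 fibroblast markers, led by Col1a1, summed to 162, 168 and 166 FPKM in wild-type control and to 1198, 1205 and 1188 FPKM in Nlrp3-/- control, and all 7 were higher in Nlrp3-/- control at a limma adjusted p under 0.05, against 33.3% of all tested genes. Lum passed the filter through Nlrp3-/- libraries alone, so it had to be higher there and nothing is read from its place in the count. With LPS+ATP they summed to 191 to 193 FPKM in wild-type and to 927 to 942 FPKM in Nlrp3-/- libraries. The 8 neutrophil and granulocyte precursor markers, led by S100a9 over all libraries, summed to 331, 353 and 367 FPKM in wild-type control and to 1830, 1782 and 1785 FPKM in Nlrp3-/- control. With LPS+ATP they summed to 328 to 342 FPKM in wild-type and to 703 to 711 FPKM in Nlrp3-/- libraries, and Ly6g, a marker of mature neutrophils, stayed under 1 FPKM throughout. These sums hide opposite moves. In each genotype 6 of the 7 tested markers were lower with LPS+ATP by the limma adjusted p alone, against 53.1% and 53.8% of all tested genes, while Lcn2 rose from a mean of 9.96 to 218 FPKM in wild-type and from 43.2 to 208 FPKM in Nlrp3-/- cells, and it led the list in wild-type LPS+ATP cells, where S100a9 had a mean of 49.9 FPKM. Mpo, 1 of the 6, passed the filter through control libraries alone, so its fall had to follow.

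Lists of other blood cells were low. The 3 erythroid markers, led by Hbb-bs over all libraries, summed to at most 2.0 FPKM in wild-type and to 2.37 to 9.45 FPKM in Nlrp3-/- libraries. Gata1 led this list in wild-type cells and, unlike the sum, was lower in Nlrp3-/- cells with LPS+ATP, by -0.41 (limma adjusted p = 0.0119). The 3 mast cell and basophil markers, led by Mcpt8, summed to at most 1.94 FPKM in wild-type and to 3.6 to 10.2 FPKM in Nlrp3-/- libraries. B cell markers, led by Cd79b, summed to 0.431 to 1.53 FPKM in wild-type and 1.71 to 4.71 FPKM in Nlrp3-/- libraries. All libraries had dendritic cell markers at a sum of at most 0.787 FPKM and T cell markers at a sum of at most 0.0905 FPKM. No marker was listed at 0 in all 12 libraries. In bulk RNA, fewer cells of a type and less RNA per cell cannot be told apart, and the part of these cells in the genotype differences given for the members was not tested.

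**Figure D1:**
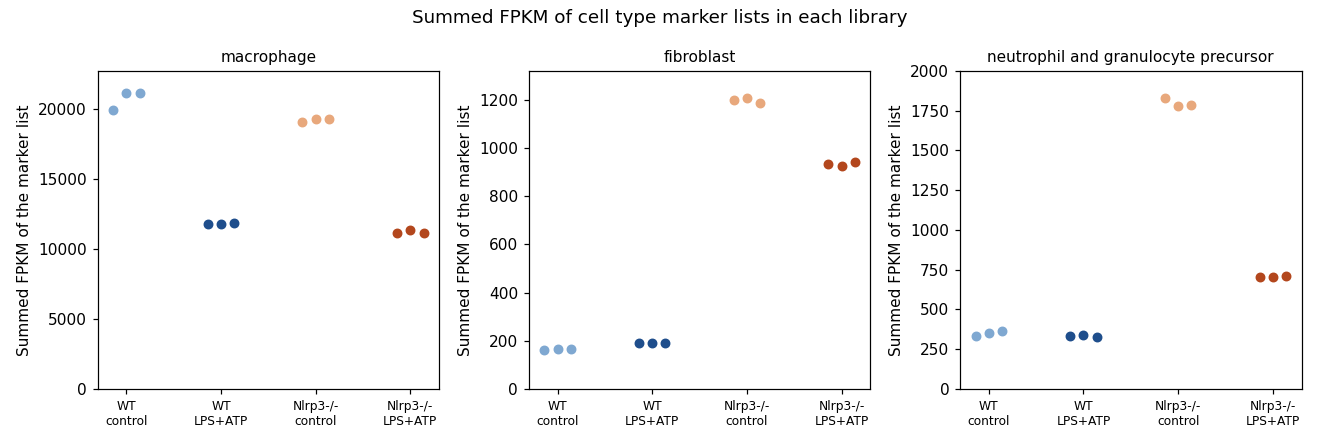
Summed FPKM of the macrophage, fibroblast, and neutrophil and granulocyte precursor marker lists, with each point a library and the 4 groups on the horizontal axis. Fibroblast sums were 162 to 193 in the 6 wild-type libraries and 927 to 1205 in the 6 Nlrp3-/- libraries.

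With LPS+ATP, the transcripts of the pathway moved in both directions. In wild-type cells Nlrp3, Mefv, Casp1 and Casp4 rose and Pycard and Nlrp1b fell, and in Nlrp3-/- cells Casp1 and Casp4 rose and Pycard, Nlrp1b and Nek7 fell. A gene was called where limma gave an adjusted p under 0.05, over all 12622 tested genes, together with a difference of at least 1 on the log2(FPKM + 1) scale. By that rule 4 of 10 members rose in wild-type cells, against 8.25% of all tested genes, and 2 of 10 fell, against 11.2%. In Nlrp3-/- cells 2 of 10 members rose, against 6.64% of tested genes, and 3 of 10 fell, against 8.21%. By the adjusted p alone, 6 members were higher in wild-type cells, against 23.3% of tested genes, and 2 were lower, against 53.1%. The same counts in Nlrp3-/- cells were 5 higher, against 20.6%, and 3 lower, against 53.8%. The members' median difference was 0.82 in wild-type and 0.33 in Nlrp3-/- cells, and the median over all tested genes was -0.25 and -0.24. The Nlrp3-/- median holds Nlrp3 at no difference, since it was listed at 0 in both states. Nlrp1b passed the filter through control libraries alone, so it had to be lower with LPS+ATP, and nothing is read from its place in these counts and medians. The call of Nek7 in Nlrp3-/- cells came from libraries that split within their groups.

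Scaling affected these values. For stimulation, median-ratio scaling shifted the median difference over tested genes by 0.24 (wild-type) and 0.23 (Nlrp3-/-), and for genotype by -0.15 in control and -0.17 with LPS+ATP. The share of called genes that were higher with LPS+ATP was 42.5% in wild-type and 44.7% in Nlrp3-/- cells. It was 60.8% and 64.6% after median-ratio scaling, and 52.9% and 53.7% after upper-quartile scaling. For genotype, 89.7% of the genes called in control and 88.7% of those called with LPS+ATP were higher in Nlrp3-/- cells, and 79.5% and 77.5% after median-ratio scaling. Of the members called for stimulation, each kept its direction under TPM, upper-quartile and median-ratio scaling in both genotypes, and Pycard in Nlrp3-/- cells came to -0.89 after median-ratio scaling, below the fold limit. Scaling also added rises to the calls, of Nlrc4 and Gsdmd in wild-type and of Mefv and Gsdmd in Nlrp3-/- cells. Members called went from 6 to 7 (upper-quartile) and 8 (median-ratio) in wild-type cells. In Nlrp3-/- cells they went from 5 to 7 (upper-quartile) and 6 (median-ratio).

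**Figure D2:**
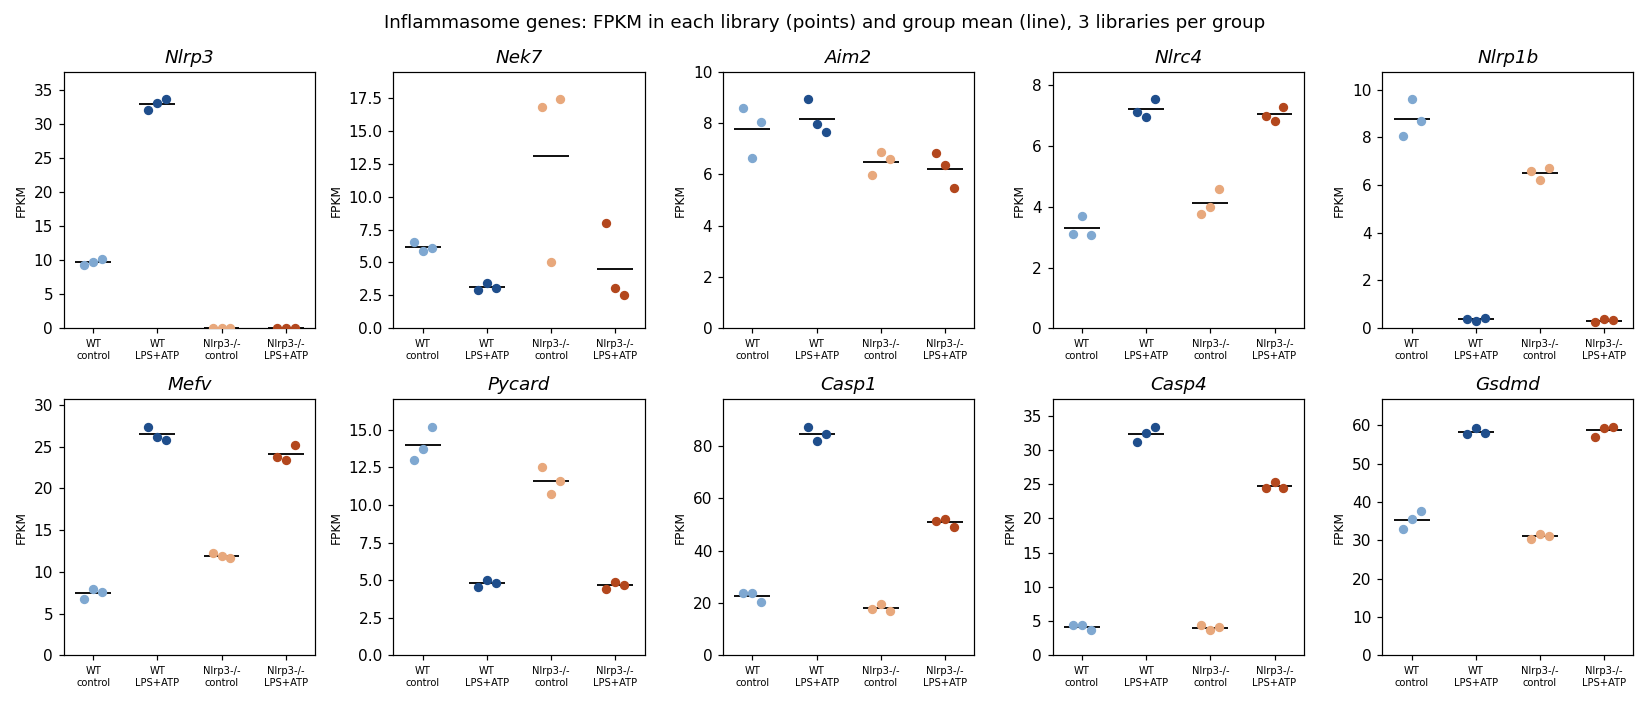
FPKM of the 10 inflammasome genes, with each point a library, a black line at the group mean and the 4 groups on the horizontal axis of each panel. Casp4 was at 3.66 to 4.46 FPKM in control libraries and 24.5 to 33.4 FPKM with LPS+ATP, Nlrp1b was under 0.5 FPKM in all 6 LPS+ATP libraries, and Nek7 differed between libraries within both Nlrp3-/- groups.

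Nlrp3 (ENSMUSG00000032691, chr11:59541568-59566956 on GRCm38, plus strand) is the sensor gene whose product ATP triggers. Its wild-type mean was 9.68 ± 0.425 FPKM (SD, n = 3) in control and 32.9 ± 0.801 FPKM (SD, n = 3) with LPS+ATP, a ratio of means of 3.4. The 2 groups did not overlap, and the difference was 1.67 on the log2(FPKM + 1) scale (SE 0.04, limma adjusted p = 2.29e-11).

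Mefv (ENSMUSG00000022534, chr16:3707218-3718097, minus strand) encodes pyrin. It was at 6.78, 7.92 and 7.64 FPKM in wild-type control and 27.4, 26.2 and 25.8 FPKM in wild-type LPS+ATP libraries. In Nlrp3-/- libraries it was at 12.3, 11.9 and 11.7 FPKM in control and 23.7, 23.4 and 25.2 FPKM with LPS+ATP. Nlrp3-/- control cells thus started above wild-type control cells, and both genotypes were higher with LPS+ATP with no overlap. The ratio of means was 3.56 in wild-type and 2.02 in Nlrp3-/- cells, with differences of 1.70 (SE 0.05, limma adjusted p = 9.76e-11) and 0.95 (SE 0.05, limma adjusted p = 2.27e-08). The second fell short of the fold limit, and passed it at 1.23 after median-ratio scaling, 1.07 after upper-quartile scaling, 1.06 as TPM and 1.01 with a pseudocount of 0.1.

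Nlrc4 (ENSMUSG00000039193, chr17:74425438-74459142, minus strand) encodes the NAIP partner. It was at 3.11, 3.70 and 3.08 FPKM in wild-type control and 7.12, 6.96 and 7.54 FPKM in wild-type LPS+ATP libraries. In Nlrp3-/- libraries it was at 3.75, 3.98 and 4.60 FPKM in control and 6.99, 6.84 and 7.30 FPKM with LPS+ATP. LPS+ATP libraries were above control libraries in both genotypes with no overlap. The differences were 0.94 in wild-type (SE 0.07, limma adjusted p = 3.02e-07) and 0.66 in Nlrp3-/- cells (SE 0.07, limma adjusted p = 7.8e-06), both under the fold limit. In wild-type cells the limit was passed at 1.21 after median-ratio scaling, 1.09 after upper-quartile scaling, 1.11 as TPM, 1.11 with a pseudocount of 0.1 and 1.00 without wild-type control replicate 2.

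Aim2 (ENSMUSG00000037860, chr1:173350879-173466040, plus strand) encodes the DNA sensor. It was at 8.61, 6.66 and 8.04 FPKM in wild-type control and 8.93, 7.95 and 7.64 FPKM in wild-type LPS+ATP libraries. Nlrp3-/- libraries had Aim2 at 5.99, 6.88 and 6.59 FPKM in control and 6.84, 6.35 and 5.49 FPKM with LPS+ATP. Control and LPS+ATP libraries overlapped in both genotypes. The differences were 0.07 in wild-type (SE 0.10, limma adjusted p = 0.53) and -0.05 in Nlrp3-/- cells (SE 0.10, limma adjusted p = 0.633). The second turned to 0.20 after median-ratio scaling and 0.06 after upper-quartile scaling, and the first, at 0.35 after median-ratio scaling, then had a limma adjusted p of 0.00653.

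Nlrp1b (ENSMUSG00000070390, chr11:71153102-71230733, minus strand) encodes the sensor that protease activity sets off, and it lies 11586 kb from Nlrp3. In wild-type control libraries it was at 8.06, 9.59 and 8.68 FPKM, and in wild-type LPS+ATP libraries at 0.393, 0.312 and 0.434 FPKM. In Nlrp3-/- libraries it was at 6.60, 6.22 and 6.71 FPKM in control and 0.256, 0.370 and 0.325 FPKM with LPS+ATP. The level in control cells was 23.1 times that with LPS+ATP in wild-type and 20.5 times in Nlrp3-/- cells. On the log2(FPKM + 1) scale, where low values are compressed, the differences were -2.82 (SE 0.07, limma adjusted p = 9.26e-12) and -2.51 (SE 0.07, limma adjusted p = 3.27e-11). As the filter let Nlrp1b in through control libraries alone, these tests describe a fall that had to follow, and both calls were also made with no filter. With the longest transcript of 4319 bases and the depth read from the steps, the LPS+ATP values would stand for about 22 to 38 fragments per library and the control values for about 549 to 946.

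Nek7 (ENSMUSG00000026393, chr1:138482875-138620141, minus strand) encodes the kinase that binds NLRP3. It was at 6.57, 5.89 and 6.08 FPKM in wild-type control and 2.87, 3.40 and 3.04 FPKM in wild-type LPS+ATP libraries, with no overlap. In Nlrp3-/- control libraries it was at 16.8, 5.04 and 17.4 FPKM, and in Nlrp3-/- LPS+ATP libraries at 8.0, 3.04 and 2.54 FPKM. Replicates 1 and 3 of Nlrp3-/- control and replicate 1 of Nlrp3-/- LPS+ATP were far above the other libraries of their groups. The widest range within a group was 1.61 on the log2(FPKM + 1) scale, at or above which lay 96 of 12622 tested genes (0.761%), while the other members ranged by 0.33 or less.

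The spread of Nek7 limits its tests, and whether it came from how fragments were assigned to transcripts was not tested. The difference with LPS+ATP was -0.81 in wild-type (SE 0.42, limma adjusted p = 0.0985) and -1.31 in Nlrp3-/- cells (SE 0.42, limma adjusted p = 0.0141). In wild-type cells it passed at a limma adjusted p of 4.63e-05 with the compared groups alone and 0.0217 without Nlrp3-/- control replicate 2, over a range of 4.63e-05 to 0.245 among all alternatives. The call in Nlrp3-/- cells was lost at a limma adjusted p of 0.0581 without Nlrp3-/- control replicate 1, 0.0594 without Nlrp3-/- control replicate 3, 0.0509 without Nlrp3-/- LPS+ATP replicate 2, 0.0584 without Nlrp3-/- LPS+ATP replicate 3 and 0.0624 with the compared groups alone. Of the 3 genes that overlap Nek7 in the annotation, 2 were listed at 0 in all 12 libraries and the third was at most 0.0239 FPKM.

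Pycard (ENSMUSG00000030793, chr7:127989708-127993867, minus strand) encodes the adaptor ASC. It was at 13.0, 13.7 and 15.2 FPKM in wild-type control and 4.55, 5.0 and 4.84 FPKM in wild-type LPS+ATP libraries. For Nlrp3-/- cells the values were 12.5, 10.7 and 11.6 FPKM in control and 4.40, 4.89 and 4.68 FPKM with LPS+ATP. The control level was 2.91 times the LPS+ATP level in wild-type and 2.49 times in Nlrp3-/- cells, with no overlap. The differences were -1.36 (SE 0.07, limma adjusted p = 5.79e-09) and -1.16 (SE 0.07, limma adjusted p = 3.41e-08).

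Casp1 (ENSMUSG00000025888, chr9:5298517-5307265, plus strand) encodes the caspase that ASC recruits. It was at 23.8, 23.8 and 20.6 FPKM in wild-type control and 87.4, 81.8 and 84.6 FPKM in wild-type LPS+ATP libraries. In Nlrp3-/- libraries it was at 17.7, 19.6 and 16.8 FPKM in control and 51.2, 52.3 and 49.0 FPKM with LPS+ATP. The 3 Nlrp3-/- LPS+ATP libraries lay between the control libraries and the wild-type LPS+ATP libraries. The ratio of means with LPS+ATP was 3.72 in wild-type and 2.82 in Nlrp3-/- cells, and the differences were 1.85 (SE 0.07, limma adjusted p = 2.91e-10) and 1.45 (SE 0.07, limma adjusted p = 3.45e-09).

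Casp4 (ENSMUSG00000033538, chr9:5308828-5336783, plus strand) encodes the caspase that binds intracellular LPS and begins 1.56 kb after the end of Casp1. It was at 4.43, 4.46 and 3.75 FPKM in wild-type control and 31.2, 32.4 and 33.4 FPKM in wild-type LPS+ATP libraries. Nlrp3-/- cells had Casp4 at 4.42, 3.66 and 4.09 FPKM in control and 24.5, 25.3 and 24.5 FPKM with LPS+ATP. This was the largest rise among the 10 members in both genotypes, with a ratio of means of 7.68 in wild-type and 6.1 in Nlrp3-/- cells. The differences were 2.68 (SE 0.07, limma adjusted p = 1.27e-11) and 2.35 (SE 0.07, limma adjusted p = 5.26e-11).

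Gsdmd (ENSMUSG00000022575, chr15:75862327-75867408, plus strand) encodes the pore-forming effector. It was at 32.9, 35.5 and 37.6 FPKM in wild-type control and 57.8, 59.2 and 58.0 FPKM in wild-type LPS+ATP libraries. Gsdmd in Nlrp3-/- libraries was at 30.5, 31.7 and 31.2 FPKM in control and 57.1, 59.4 and 59.7 FPKM with LPS+ATP. LPS+ATP libraries of both genotypes overlapped, and all 6 were above the control libraries. The differences were 0.71 in wild-type (SE 0.04, limma adjusted p = 3.51e-08) and 0.90 in Nlrp3-/- cells (SE 0.04, limma adjusted p = 6.07e-09). Both were under the fold limit, which they passed after median-ratio scaling at 1.02 and 1.19, and the second also at 1.02 after upper-quartile scaling.

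**Figure D3:**
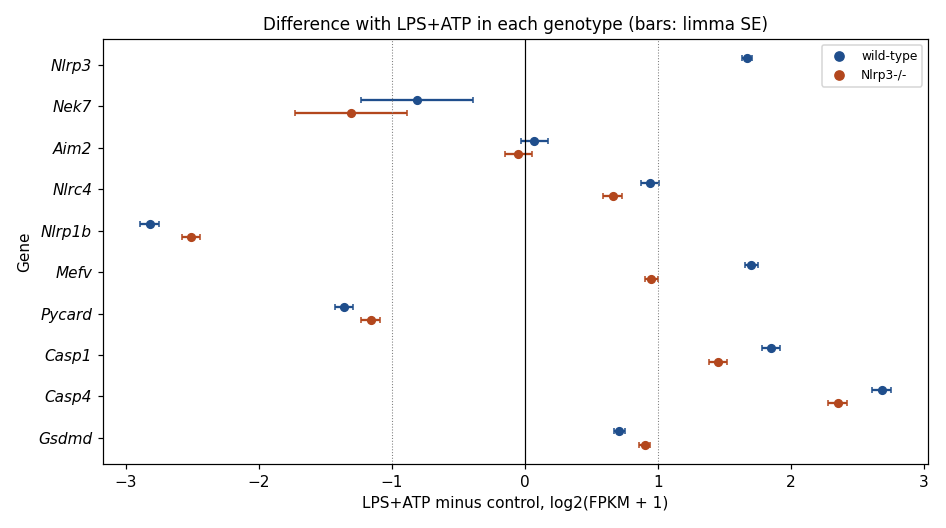
Difference with LPS+ATP on the log2(FPKM + 1) scale for each member, in wild-type (blue) and Nlrp3-/- (red) cells, with bars of 1 standard error from limma and dotted lines at the fold limit. Nlrp3 has a point in wild-type cells alone because Nlrp3-/- libraries listed it at 0, Casp4 lies farthest to the right and Nlrp1b farthest to the left.

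The order of levels changed with LPS+ATP. In wild-type control cells Gsdmd was highest at 35.3 ± 2.31 FPKM, Casp1 followed at 22.8 ± 1.88 FPKM and Pycard at 13.9 ± 1.11 FPKM (SD, n = 3 each), and the ranges of these genes did not overlap. Nlrp3 overlapped Nlrp1b, Nlrp1b overlapped Aim2, and Aim2 overlapped Mefv in that group, and Nek7, Casp4 and Nlrc4 came below them in this order without overlap. In wild-type LPS+ATP cells Casp1 was highest at 84.6 ± 2.84 FPKM, followed by Gsdmd at 58.4 ± 0.755 FPKM (SD, n = 3 each). Nlrp3 at 32.9 FPKM and Casp4 at 32.3 FPKM overlapped there, Mefv, Aim2, Nlrc4, Pycard and Nek7 came next without overlap, and Nlrp1b was lowest at 0.38 FPKM.

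Nlrp3-/- cells kept Gsdmd highest in both states, at 31.1 ± 0.594 FPKM in control and 58.8 ± 1.41 FPKM with LPS+ATP (SD, n = 3 each). Casp1 followed at 18.0 ± 1.44 FPKM and 50.8 ± 1.68 FPKM (SD, n = 3 each). In Nlrp3-/- control the wide range of Nek7 overlapped Casp1, Mefv, Pycard, Nlrp1b and Aim2, Mefv overlapped Pycard, Nlrp1b overlapped Aim2, and Nlrc4 overlapped Casp4. In Nlrp3-/- LPS+ATP cells Casp4 overlapped Mefv, Nlrc4 overlapped Aim2, and Nek7 overlapped Nlrc4, Aim2 and Pycard, while Nlrp1b was at 0.317 FPKM.

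Because Casp1 rose and Pycard fell, their levels moved apart. Within a library, Casp1 was 1.36 to 1.83 times Pycard in wild-type control and 16.4 to 19.2 times Pycard in wild-type LPS+ATP, both in FPKM. In Nlrp3-/- libraries the same ratio was 1.42 to 1.83 in control and 10.5 to 11.6 with LPS+ATP, below every wild-type LPS+ATP library. Nlrp3 was 0.665 to 0.712 times Pycard in wild-type control and 6.6 to 7.04 times in wild-type LPS+ATP. Mefv was 0.504 to 0.579 times Pycard in wild-type control, 0.987 to 1.1 times in Nlrp3-/- control, 5.25 to 6.02 times in wild-type LPS+ATP and 4.78 to 5.39 times in Nlrp3-/- LPS+ATP. Casp4 was 0.182 to 0.187 times Casp1 in wild-type control, 0.357 to 0.396 times in wild-type LPS+ATP, 0.187 to 0.25 times in Nlrp3-/- control and 0.479 to 0.5 times in Nlrp3-/- LPS+ATP. These ratios do not depend on the scaling between libraries and were not tested. Their absolute size rests on the transcript lengths used for FPKM, which are not given.

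The genotype comparison asked which members differed between Nlrp3-/- and wild-type cells in the same state. Apart from Nlrp3, which was called lower in both states, no member passed the call rule. Nlrp3 is the deleted gene and passed the filter through wild-type libraries alone, so its call was fixed by the design, and nothing is read from its place in the counts of lower members. In control cells 0 of 10 members were called higher, against 6.02% of all tested genes, and 1 of 10 lower, against 0.689%. With LPS+ATP, 0 of 10 were called higher, against 4.48%, and 1 of 10 lower, against 0.57%. By the limma adjusted p alone, 2 members were higher in Nlrp3-/- control, against 33.3% of tested genes, and 5 lower, against 14.5%. With LPS+ATP, 0 were higher, against 35.9%, and 4 lower, against 12.6%. By an unadjusted limma p under 0.05, the counts were 2 higher, against 37.0% of tested genes, and 6 lower, against 16.7%, in control, and 0 higher, against 39.7%, and 5 lower, against 14.6%, with LPS+ATP. The 2 genotype comparisons take their differences from different libraries, which the stimulation comparisons share. All comparisons came from 1 fit, so each p-value also rests on the spread in the other groups, and the sets of values are not independent.

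Mefv was the member with the largest genotype difference in control cells among those whose libraries did not overlap, Nlrp3 aside, at 12 ± 0.311 FPKM in Nlrp3-/- and 7.44 ± 0.595 FPKM in wild-type (SD, n = 3 each). The difference was 0.62 (SE 0.05, limma adjusted p = 2.07e-06), and it was 0.43 after median-ratio scaling. Nlrc4 was higher in Nlrp3-/- control by 0.25 (SE 0.07, limma adjusted p = 0.0142), a difference that missed the threshold after median-ratio scaling at 0.09 (limma adjusted p = 0.321), with the compared groups alone (0.059), and without wild-type control replicate 3 (0.0545) or Nlrp3-/- control replicate 3 (0.0581). The range of the limma adjusted p over all alternatives for Nlrc4 was 0.00437 to 0.321. Granulocyte precursor and fibroblast markers were also higher in Nlrp3-/- control, as given above, and their part in these differences was not tested.

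Besides Nlrp3, the members that were lower in Nlrp3-/- control by the limma adjusted p alone were Casp1, Nlrp1b, Pycard and Gsdmd. The difference of Casp1 was -0.32 (SE 0.07, limma adjusted p = 0.00182), that of Nlrp1b -0.38 (SE 0.07, limma adjusted p = 0.000672), that of Pycard -0.24 (SE 0.07, limma adjusted p = 0.0113) and that of Gsdmd -0.18 (SE 0.04, limma adjusted p = 0.00556). These directions held under TPM, upper-quartile and median-ratio scaling, but the sizes moved. Over all alternatives they ran from -0.51 to -0.27 for Casp1, -0.55 to -0.32 for Nlrp1b, -0.43 to -0.19 for Pycard and -0.37 to -0.13 for Gsdmd. For Casp4 the difference was -0.04 (SE 0.07, limma adjusted p = 0.626), for Aim2 -0.22 (SE 0.10, limma adjusted p = 0.079) and for Nek7 0.81 (SE 0.42, limma adjusted p = 0.136). Other settings moved these 3 across the threshold. Aim2 passed it at -0.39 after median-ratio scaling (limma adjusted p = 0.00563), -0.29 after upper-quartile scaling (0.0321) and -0.32 without wild-type control replicate 2 (0.0171), and Casp4 at -0.20 after median-ratio scaling (0.0227). Without Nlrp3-/- control replicate 2, the Nek7 difference was 1.34 (limma adjusted p = 0.00563), which passed the call rule.

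With LPS+ATP, Casp1 had the largest genotype difference after Nlrp3. It was at 50.8 ± 1.68 FPKM in Nlrp3-/- and 84.6 ± 2.84 FPKM in wild-type cells (SD, n = 3 each), so the wild-type level was 1.66 times the other. The difference was -0.72 (SE 0.07, limma adjusted p = 3.62e-06). Casp4 differed by -0.37 (SE 0.07, limma adjusted p = 0.000698) and Aim2 by -0.35 (SE 0.10, limma adjusted p = 0.0119), both with no overlap, and the 3 directions held under TPM, upper-quartile and median-ratio scaling. Over all alternatives the differences ran from -0.94 to -0.70 for Casp1, -0.58 to -0.35 for Casp4 and -0.54 to -0.27 for Aim2. Without Nlrp3-/- LPS+ATP replicate 3, the limma adjusted p of Aim2 was 0.0504, in a range of 0.000669 to 0.0504 over the alternatives.

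For the other members the genotype difference with LPS+ATP missed the threshold. It was -0.13 for Mefv (SE 0.05, limma adjusted p = 0.0646), whose libraries did not overlap. Mefv passed the threshold at -0.34 after median-ratio scaling (limma adjusted p = 0.00028), -0.25 after upper-quartile scaling (0.00298), -0.13 with the compared groups alone (0.0406), -0.13 without wild-type control replicate 1 (0.0208) and -0.16 without Nlrp3-/- LPS+ATP replicate 3 (0.0468). The difference was 0.01 for Gsdmd (SE 0.04, limma adjusted p = 0.878), and its direction turned to -0.21 after median-ratio scaling (limma adjusted p = 0.00287) and -0.11 after upper-quartile scaling. For Nlrp1b it was -0.07 (limma adjusted p = 0.443), for Pycard -0.04 (limma adjusted p = 0.7), for Nlrc4 -0.03 (limma adjusted p = 0.776) and for Nek7 0.30 (limma adjusted p = 0.591). After median-ratio scaling Pycard and Nlrc4 passed the threshold, both at -0.22 (limma adjusted p = 0.0172 and 0.0218).

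**Figure D4:**
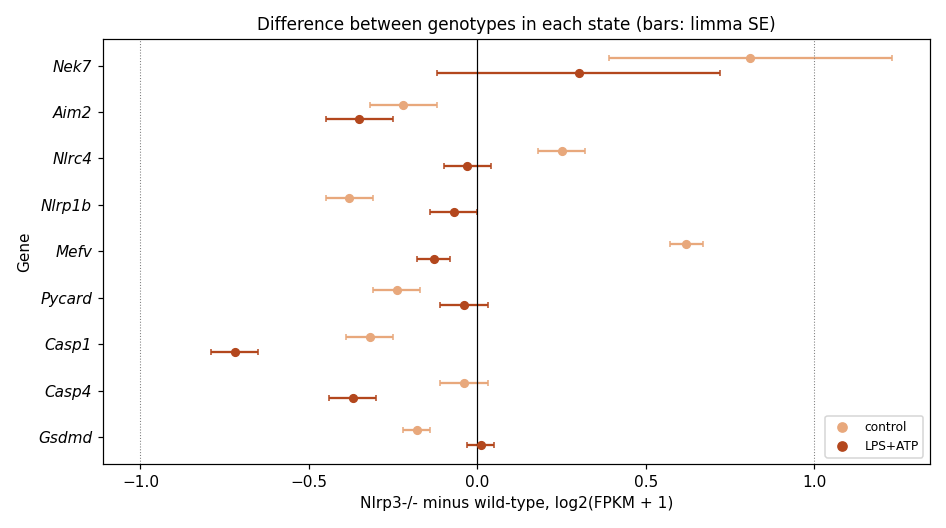
Difference between Nlrp3-/- and wild-type cells on the log2(FPKM + 1) scale for 9 members, in control (light) and LPS+ATP (dark) libraries, with bars of 1 standard error from limma and dotted lines at the fold limit. Mefv and Nek7 lie to the right in control, Casp1 lies farthest to the left with LPS+ATP, and Nlrp3 is left out because Nlrp3-/- libraries listed it at 0.

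The interaction compares the 2 stimulation differences, as Nlrp3-/- minus wild-type. Nlrp3 alone passed the call rule there, from its zeros, so its count was fixed by the design. That left 0 of 10 members called as higher, against 0.721% of all tested genes, and 1 of 10 as lower, against 1.43%. By the limma adjusted p alone 2 members had a higher value in Nlrp3-/- cells, against 14.7% of tested genes, and 4 a lower one, against 13.0%, and by an unadjusted limma p under 0.05 the counts were 2, against 20.9%, and 5, against 17.4%. The stimulation difference of Mefv was smaller in Nlrp3-/- cells, with an interaction of -0.75 (SE 0.08, limma adjusted p = 3.16e-05). Those of Casp1 and Casp4 were smaller as well, with interactions of -0.40 (SE 0.09, limma adjusted p = 0.00767) and -0.33 (SE 0.09, limma adjusted p = 0.0227). Each of these directions held under TPM, upper-quartile and median-ratio scaling, but Casp4 missed the threshold as TPM (limma adjusted p = 0.0609), without wild-type LPS+ATP replicate 3 (0.0541) and without Nlrp3-/- control replicate 1 (0.0508).

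Gsdmd and Nlrp1b had interaction values above 0. Gsdmd had 0.19 (SE 0.06, limma adjusted p = 0.0417), a rise that was larger in Nlrp3-/- cells, and Nlrp1b had 0.31 (SE 0.09, limma adjusted p = 0.0306). Nlrp1b passed the filter through control libraries alone and its LPS+ATP values were near 0, where the scale is compressed, so this value mostly repeats its genotype difference in control and nothing is read from it. It was 0.22 with a pseudocount of 0.1 (limma adjusted p = 0.415). Both calls were easily lost, in 14 of 21 alternatives for Gsdmd, where the limma adjusted p ran from 0.00436 to 0.14, and in 10 of 21 for Nlrp1b, where it ran from 0.0085 to 0.415. The interaction was -0.28 for Nlrc4 (limma adjusted p = 0.0648), 0.21 for Pycard (limma adjusted p = 0.134), -0.12 for Aim2 (limma adjusted p = 0.559) and -0.51 for Nek7 (limma adjusted p = 0.576). Leaving out 1 library moved it over -0.19 to -0.03 for Aim2 and -1.03 to -0.23 for Nek7. Nlrc4 passed the threshold after upper-quartile scaling (limma adjusted p = 0.0341) and median-ratio scaling (0.0385), and without wild-type control replicate 2 (0.0236) or Nlrp3-/- control replicate 1 (0.0412).

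Other sensor genes of the pathway also moved with LPS+ATP. Of 14 listed, 9 were tested. In wild-type cells 6 rose, against 8.25% of all tested genes, and 1 fell, against 11.2%, and in Nlrp3-/- cells 6 rose, against 6.64%, and 0 fell, against 8.21%. By the limma adjusted p alone, 3 were lower in each genotype, against 53.1% and 53.8%, and by an unadjusted limma p under 0.05 3 were lower in Nlrp3-/- cells, against 55.0%. The gene that fell was Nlrc3, which is also among the 3, and it passed the filter through control libraries alone, so it had to be lower and nothing is read from its place in these counts. Nlrp1a, another of the 3, was at 1.08, 1.01 and 0.856 FPKM in wild-type LPS+ATP and at most 0.777 FPKM in Nlrp3-/- LPS+ATP libraries. It too needed control libraries to pass the filter, so nothing is read from its place either. The list's median difference was 2.00 in wild-type and 1.86 in Nlrp3-/- cells. Zbp1, a sensor of Z-form nucleic acid, rose from a mean of 6.99 to 118 FPKM in wild-type and from 5.2 to 116 FPKM in Nlrp3-/- cells, differences of 3.90 and 4.23. The AIM2-like receptor genes Ifi203 and Ifi204 rose by 2.56 and 2.54 in wild-type and by 2.83 and 2.96 in Nlrp3-/- cells, and Nlrc5, a regulator of MHC class I genes, rose by 2.18 and 2.10. Nlrp6 and Nlrp9b were listed at 0 in all 12 libraries. Between genotypes 0 of the 9 passed the call rule in either state, while by the limma adjusted p alone 1 was higher, against 33.3% of all tested genes, and 5 were lower, against 14.5%, in Nlrp3-/- control, and 1 was higher, against 35.9%, and 4 were lower, against 12.6%, with LPS+ATP. At an unadjusted limma p under 0.05, 1 was higher and 5 were lower in each state, against 37.0% and 16.7% in control and 39.7% and 14.6% with LPS+ATP.

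The NAIP receptors bind bacterial ligands for NLRC4. Of 4 present, 3 were tested, and Naip2 rose by 1.22 in wild-type cells and was higher by 0.97 in Nlrp3-/- cells, under the fold limit. The median of the 3 was -0.10 and -0.20, and Naip1, which was not tested, went from a mean of 0.168 to 0.708 FPKM in wild-type cells. By the limma adjusted p alone, 2 of the 3 were lower in Nlrp3-/- control, against 14.5% of all tested genes, and all 3 were lower in Nlrp3-/- cells with LPS+ATP, against 12.6%.

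Among other caspase and adaptor genes, Cflar, which encodes an inhibitor of caspase-8, rose with LPS+ATP by 2.99 in wild-type and 2.41 in Nlrp3-/- cells. Casp12 was called between genotypes in control, at 1.16, 1.34 and 1.08 FPKM in wild-type control and 4.45, 4.98 and 5.27 FPKM in Nlrp3-/- control, a difference of 1.43 (SE 0.07, limma adjusted p = 2.92e-08). Casp12 lies in the same gene cluster as Casp1 and Casp4, for which the genotype differences in control were -0.32 and -0.04.

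Other gasdermins were little expressed. Of 9 listed gene symbols present, Ninj1, a membrane rupture gene, was the 1 that was tested, and Gsdma2, Gsdma3, Gsdmc2 and Gsdmc3 were listed at 0 in all 12 libraries. Ninj1 was higher with LPS+ATP by 0.78 in wild-type and 0.45 in Nlrp3-/- cells, under the fold limit. Gsdmd was thus the gasdermin gene with the highest level in all 12 libraries.

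Of 22 tested genes that license or restrain NLRP3, 5 rose, against 8.25% of all tested genes, and 4 fell, against 11.2%, in wild-type cells. The counts in Nlrp3-/- cells were 4, against 6.64%, and 3, against 8.21%, and the medians were -0.07 and -0.16. Gbp5, which encodes a guanylate-binding protein, rose from a mean of 1.22 to 163 FPKM in wild-type and from 0.873 to 147 FPKM in Nlrp3-/- cells, differences of 6.21 and 6.31. Trim31, which encodes a ubiquitin ligase, was listed at 0 in all 12 libraries. Tnfaip3, which encodes the deubiquitinase A20, rose by 2.94 and 2.83, Trim30a by 2.31 and 2.83, and Eif2ak2, which encodes the kinase PKR, by 1.48 and 1.90. Tnfaip3 varied within groups, at 68.7, 36.7 and 54.4 FPKM in wild-type LPS+ATP and 38.2, 68.5 and 37.5 FPKM in Nlrp3-/- LPS+ATP libraries. P2rx7, which encodes the ATP receptor, was among the genes that fell, at 12.1, 12.3 and 18.1 FPKM in wild-type control and 4.57, 5.0 and 4.43 FPKM with LPS+ATP, and was named for its role after its values were seen. Between genotypes, 0 of the 22 passed the call rule in either state, while by the limma adjusted p alone 4 were higher, against 33.3% of all tested genes, and 8 lower, against 14.5%, in Nlrp3-/- control, and 6 higher, against 35.9%, and 8 lower, against 12.6%, with LPS+ATP. An unadjusted limma p under 0.05 was met by 4 higher, against 37.0%, and 8 lower, against 16.7%, in control, and by 7 higher, against 39.7%, and 10 lower, against 14.6%, with LPS+ATP. Prkd1, counted as higher in both states, passed the filter through Nlrp3-/- libraries alone, so it had to be higher there and nothing is read from its place in the counts.

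Dpp8 and Dpp9, whose products restrain NLRP1B, were both lower with LPS+ATP by the limma adjusted p alone, by -0.53 and -0.48 in wild-type and -0.42 and -0.36 in Nlrp3-/- cells. By that rule 53.1% and 53.8% of all tested genes were lower, so this is not particular to the 2 genes.

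All 5 genes of the caspase-1 substrate list, which includes antagonists, rose in both genotypes, against 8.25% of all tested genes in wild-type and 6.64% in Nlrp3-/- cells, with medians of 4.25 and 3.77. Il1b went from 0.235, 0.298 and 0.186 FPKM to 1388, 1404 and 1366 FPKM in wild-type cells, and from 1.73, 1.44 and 1.22 FPKM to 996, 994 and 995 FPKM in Nlrp3-/- cells.

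**Figure D5:**
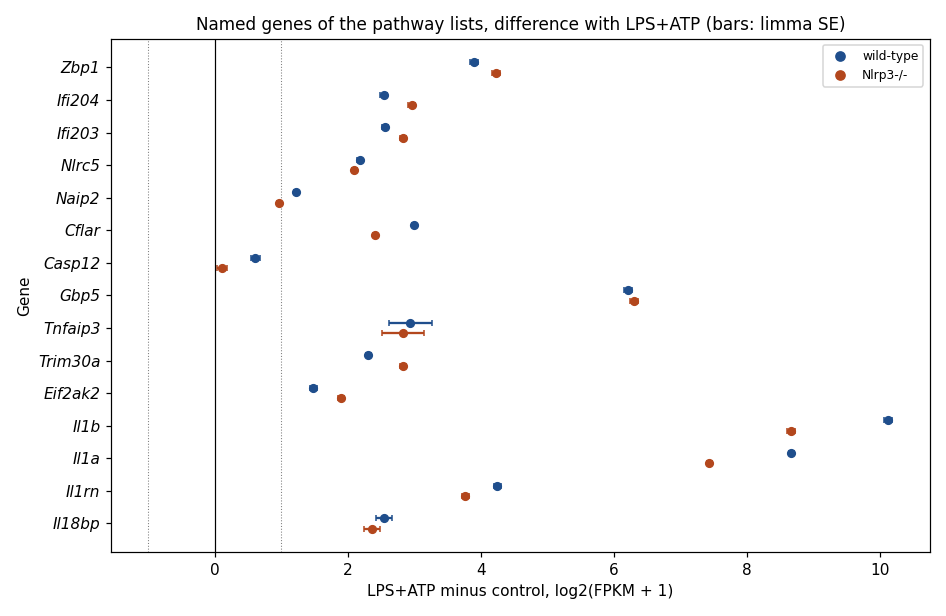
Difference with LPS+ATP on the log2(FPKM + 1) scale for the named genes of the pathway lists, in wild-type (blue) and Nlrp3-/- (red) cells, with bars of 1 standard error from limma. Zbp1, Ifi204, Ifi203, Trim30a and Eif2ak2 lie farther to the right in Nlrp3-/- cells, and Cflar, Il1b, Il1a and Il1rn farther to the right in wild-type cells.

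Several genes followed the members closely across libraries. The likeness is Pearson r of log2(FPKM + 1) over the 12 libraries, which share their groups, so r mostly reflects the 4 group means and is a description. Nlrp1b was most like Cd300lb, Rab3il1 and Cd300a (r = 0.999 each), and Cd300lb had means of 88.4 and 3.67 FPKM in wild-type control and LPS+ATP. Pycard was most like Fggy and Trem2 (r = 0.996 each) and Mapk3 (r = 0.995). Casp4 was most like Cpd (r = 0.999), Cd274 and F10 (r = 0.998 each), and Cd274, which encodes PD-L1, had means of 32.2 and 649 FPKM in wild-type cells without and with LPS+ATP, and of 28.5 and 398 FPKM in Nlrp3-/- cells.

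Casp1 was most like Slc31a1 (r = 0.997), Crbn and Fndc3a (r = 0.996 each), and the copper transporter gene Slc31a1 had means of 33.7, 107, 27.8 and 70.5 FPKM in the same order of groups. Mefv was most like Marcksl1 (r = 0.998), Marco (r = 0.997) and Srgn (r = 0.996), and the scavenger receptor gene Marco had means of 8.93, 203, 27.0 and 181 FPKM in that order. Nek7 was less closely followed, by Tia1 (r = 0.948), Ddx55 (r = 0.902) and Traf3ip1 (r = 0.901). Over the 6 wild-type libraries, Nlrp3 was most like Hcls1, Bcl2a1b and Slc16a3 (r = 1.000 each).

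Annotation bears on how these values were counted. No other transcript matched a member's longest transcript at 95% identity over at least 20% of its length. Nek7 overlapped 3 annotated genes, and Aim2, Nlrc4 and Pycard 1 each. Cadm3 and Gm45205, which overlap Aim2 and Pycard on the opposite strand, were at most 0.193 and 0.139 FPKM, and a pseudogene overlaps Nlrc4 on the same strand. Whether counting used strand is not given in the sources used here, which bears on the overlaps with Cadm3 and Gm45205. Fragments shared by Nlrc4 and the pseudogene were not tested. All positions here are on GRCm38, while the submitters' processing notes name GRCm39.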

How the data were processed

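The values used are the FPKM that the authors deposited for each gene in 12 libraries. The submitters' processing notes name GRCm39 and DESeq2 1.24.0, and the aligner, counter and annotation are not given in the sources used here. The filter kept genes that reached 1 FPKM in 3 or more libraries. In R 4.3.3, limma 3.58.1 was fitted to log2(FPKM + 1), with 1 mean per group, a variance trend and Benjamini-Hochberg adjustment over 12622 genes. The test was first run on simulated data. The 5 contrasts were stimulation within each genotype, genotype within each state, and their interaction.

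Members and lists were chosen with earlier results of these data known. Named genes were all members, up to 4 called genes per pathway list by size of difference, genes listed at 0 in every library, the 3 genes most like each member called for stimulation, and checks. Depth was read from values under 0.2 FPKM of genes over 1000 bases with 1 transcript. As alternatives, the fit was repeated without each library in turn, with the compared groups alone, with a replicate block, without the trend, without the fold limit, without a filter or with it at 5 FPKM, with a pseudocount of 0.1, and on TPM or values scaled by upper quartiles or median ratios. Positions and transcripts came from GENCODE on GRCm38, and promoters from RefSeq on GRCm38.p6. Of the gene identifiers, 55154 of 55335 are in that GENCODE release. Near copies were sought with blastn 2.17.0. Other steps used Python 3.11.15, numpy 2.4.6, pandas 2.3.3 and matplotlib 3.10.9. Protein sequences were not used here.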

Additional observations from a re-analysis of the deposited data

Results flagged for a closer look

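The following genes had a different response to LPS+ATP in the 2 genotypes, by an interaction with a limma adjusted p under 0.05. Each value is the Nlrp3-/- stimulation difference minus the wild-type one on the log2(FPKM + 1) scale. Among the members it was -0.75 for Mefv, -0.40 for Casp1, -0.33 for Casp4, 0.31 for Nlrp1b and 0.19 for Gsdmd. The limma adjusted p missed the threshold in 14 of 21 alternatives for Gsdmd, 10 of 21 for Nlrp1b, 3 of 21 for Casp4 and 0 of 21 for Mefv and Casp1. Nothing is read from the value of Nlrp1b, which passed the filter through control libraries alone and was near 0 FPKM with LPS+ATP. Mefv, Casp1 and Casp4 rose in wild-type cells and had smaller differences in Nlrp3-/- cells. For Mefv, Nlrp3-/- control libraries began at 11.7 to 12.3 FPKM and wild-type control libraries at 6.78 to 7.92 FPKM, while LPS+ATP libraries lay at 23.4 to 25.2 and 25.8 to 27.4 FPKM.

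Among the named genes of the pathway lists, the response was larger in Nlrp3-/- cells for Trim30a at 0.52, Ifi204 at 0.42, Eif2ak2 at 0.42, Zbp1 at 0.34 and Ifi203 at 0.28. A larger response did not mean a higher level with LPS+ATP. In the same order, the genotype differences were -0.78, -0.68, -0.26, -0.36 and -0.74 in control. With LPS+ATP they were -0.27, -0.26, 0.16, -0.03 and -0.47. The response was smaller in Nlrp3-/- cells for Il1b at -1.46, Il1a at -1.23, Cflar at -0.58, Casp12 at -0.50, Il1rn at -0.48 and Naip2 at -0.25. Control values of Il1b were near 0, at 0.186 to 0.298 FPKM in wild-type and 1.22 to 1.73 FPKM in Nlrp3-/- libraries, where the scale is compressed. Its genotype difference was 0.99 in control and -0.48 with LPS+ATP. Sex, strain background and the levels of fibroblast and granulocyte markers differed between the genotypes as well, and cannot be told apart from genotype here.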

How the results depend on the processing

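Counts of called genes, given in the order stimulation in wild-type, stimulation in Nlrp3-/-, genotype in control, genotype with LPS+ATP and interaction, were 2452, 1874, 847, 637 and 271. With a pseudocount of 0.1 they were 3702, 2847, 1428, 1406 and 634, and without the fold limit 9641, 9383, 6035, 6124 and 3494. As TPM, where 16026 genes passed the filter, they were 3657, 2933, 1597, 1327 and 605. A filter at 5 FPKM, which left 7585 genes, gave 1888, 1440, 515, 473 and 189. Members called were 6, 5, 1, 1 and 1. Without the fold limit they were 8, 8, 7, 4 and 6. Leaving out each library in turn gave 2425 to 2478, 1868 to 1888, 845 to 858, 621 to 641 and 266 to 278 genes, and 6 to 7, 4 to 5, 1 to 2, 1 to 1 and 1 to 1 members. The second member called for genotype in control was Nek7, without Nlrp3-/- control replicate 2. Directions turned for differences that had missed the threshold, and the cause was not tested. Aim2 stimulation in Nlrp3-/- came to 0.06 after upper-quartile scaling, 0.20 after median-ratio scaling and 0.0012 as TPM. Gsdmd genotype with LPS+ATP came to -0.11 after upper-quartile scaling and -0.21 after median-ratio scaling. Leaving out 1 library gave ranges that crossed 0, of -0.03 to 0.14 for Aim2 stimulation in wild-type, -0.11 to 0.02 for Aim2 stimulation in Nlrp3-/-, -0.11 to 0.02 for Casp4 genotype in control, and, for genotype with LPS+ATP, -0.12 to 0.56 for Nek7, -0.05 to 1.5e-05 for Nlrc4 and -0.0018 to 0.03 for Gsdmd. Of 552 member values without 1 library, 540 kept direction and call, and of 414 under the other settings, 396 did. The limma adjusted p left the threshold for 26 and met it for 7 of the first, and for 11 and 13 of the second. Deviations of same-numbered libraries from their group means correlated at -0.0565 to 0.0528 over 18 pairs, and those of other pairs at -0.0687 to 0.0991. No pairing by replicate number was seen in these correlations, which cannot exclude shared animals, days or batches. With the replicate block the counts were 2453, 1876, 847, 636 and 268. At this depth the LPS+ATP levels of Nlrp1b rest on few fragments.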

Other observations

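Nek7 was not the only gene whose libraries split within a group. The symbol Itgam, a macrophage integrin, had 2 entries, which in Nlrp3-/- control libraries were at 33.0, 100 and 34.0 FPKM and at 106, 34.2 and 105 FPKM. Their sum was 138, 134 and 139 FPKM, so the entries traded places while the sum hardly moved. In wild-type control the entries were at 37.8, 103 and 42.0 FPKM and at 112, 53.0 and 114 FPKM, with sums of 149, 156 and 156 FPKM. Nod1, a sensor of bacterial peptidoglycan, was at 19.1, 28.7 and 13.0 FPKM in Nlrp3-/- LPS+ATP libraries and at 22.2, 24.3 and 25.9 FPKM in wild-type LPS+ATP libraries. Both were named after their values were seen.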
